A study of Mus musculus with 21 samples.

Results

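Lipoprotein lipase, apolipoprotein E and a group of receptors that bind lipoprotein particles were followed through 21 microarrays of the mouse dentate gyrus, the granule-cell field of the hippocampus. The 6 genes were Lpl, Apoe, Vldlr, Lrp8, Lrp1 and Sorl1, and every probe set annotated to one of these symbols was taken. That gave 17 of the 45101 probe sets on the array and 6 of the 18193 genes with a symbol of their own. Lpl had 2 probe sets, Apoe 1, Vldlr 6, Lrp8 3, Lrp1 2 and Sorl1 3. The genes were put together with their levels and their differences within sets in view, so those values are a description here and support no claim about the genes as a group.

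Lipoprotein lipase is a secreted enzyme that splits the triglycerides of lipoprotein particles into fatty acids, and it also bridges particles to heparan sulfate and to receptors at the cell surface. In the brain it is known to be made by hippocampal neurons and by some glia. Apolipoprotein E, made mostly by astrocytes, is the main protein of the brain's own lipid particles, which cells take up through receptors of the low-density lipoprotein (LDL) receptor family. Vldlr and Lrp8 (also called apolipoprotein E receptor 2) are also the receptors for Reelin, the secreted protein that positions neurons and tunes hippocampal synapses. Lrp1 clears many ligands from the cell surface, and Sorl1 is a sorting receptor that carries cargo between the Golgi and endosomes.

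The study asked what overexpression of the Nogo receptor NgR (gene Rtn4r) does in the forebrain. Bitransgenic mice carry an NgR transgene and the transactivator tTA, and doxycycline keeps the transgene off. Each of the 7 groups held 3 arrays. Set 1 had bitransgenic mice given water after doxycycline was taken away, bitransgenic mice kept on doxycycline in the diet, and monotransgenic mice given water, labelled as lacking tTA and as having had doxycycline removed. Experiment 2 had bitransgenic mice on water that had never met doxycycline and monotransgenic mice on water. Set 3 had both genotypes, with no treatment in its labels. The labels used here give neither the promoter that drives tTA nor the age, sex or pooling of the animals, so it is not known from them which cells carried the active transgene. Beyond sample numbers, nothing says that the arrays came from separate animals, so each p-value reflects the spread among these arrays, which may be partly technical. Array numbers 1 to 3 within a group are names in deposition order and pair nothing between groups.

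Values are the deposited linear intensities. All 10 granule-cell markers, among them Prox1 and C1ql2, passed the filter on low values, with a summed intensity of 20723 to 32394 per array. Rtn4r read 254 to 1469 on the 9 arrays of bitransgenic mice off the doxycycline diet, 73.1 to 111 under doxycycline and 63.8 to 185 in monotransgenic mice. Experiment 2 differed from the other sets in sex-linked RNA. Xist read 2361 to 4750 on its 6 arrays and 9.59 to 33.7 on the other 15, so sex and set cannot be told apart. The log2 ratio of the 3' to the 5' actin control, a sign of RNA or labelling quality, was 6.45 on bitransgenic array 2 and 5.97 on monotransgenic array 1 of experiment 2, and 4.17 to 5.41 elsewhere.

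Lpl stood out among the 6 genes for how far its signal moved from array to array. Its brighter probe set, 1415904_at, read 1313, 1398 and 1148 in monotransgenic set 1 mice. After doxycycline removal the bitransgenic mice of that set read 28.2, 704 and 44.8. On the doxycycline diet the readings were 113, 672 and 181. Both bitransgenic groups therefore lay wholly below the monotransgenic group, and each held 1 array, array 2, far above its other two. The diet group is meant to have the transgene off. Its Rtn4r signal, 73.1 to 111, overlapped that of the monotransgenic mice of set 1, 63.8 to 98.4, while its Lpl signal lay below theirs.

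In set 3, Lpl 1415904_at read 79.9, 49.6 and 25.6 in bitransgenic mice and 713, 191 and 717 in monotransgenic mice. The groups again did not overlap. The readings in experiment 2 were 288, 49.6 and 65.1 in bitransgenic mice and 75.5, 269 and 193 in monotransgenic mice, where the groups overlapped, with the highest of the 6 readings in a bitransgenic mouse. In bulk tissue such as this, fewer cells of a type and less RNA per cell cannot be told apart.

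Ordered by group mean, Lpl 1415904_at was at 1286 ± 127 (SD, n = 3) in monotransgenic set 1 mice, 541 ± 303 in those of set 3 and 322 ± 305 under doxycycline. It was at 259 ± 385 after doxycycline removal, 179 ± 97.4 in the monotransgenic mice of experiment 2, 134 ± 134 in the bitransgenic mice of experiment 2 and 51.7 ± 27.2 in those of set 3. Only the step from the first to the second group was free of overlap between arrays. The 3 monotransgenic groups themselves spanned 75.5 to 1398, so most of the range of this probe set was present among monotransgenic mice.

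**Figure D1:**
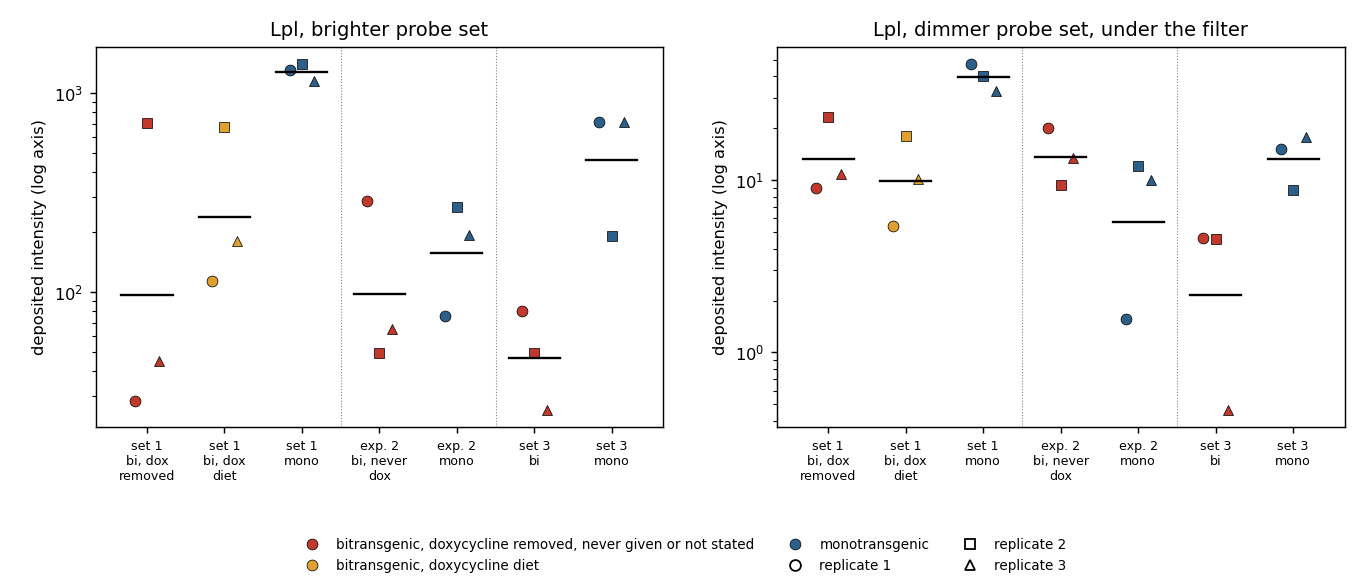
Deposited intensity (log axis) of both Lpl probe sets on each of the 21 arrays, by group; bars are geometric means of 3 arrays and dotted lines separate the sets. The brighter probe set reads 1148 to 1398 in monotransgenic set 1 mice and 25.6 to 79.9 in the bitransgenic mice of set 3, while the groups of experiment 2 overlap.

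On quantile-normalized log2(intensity + 16) values, which understate changes of dim probe sets, the difference of Lpl 1415904_at between doxycycline removal and monotransgenic mice of set 1 was -3.35 ± 0.79 (SE), or 10.2-fold lower. In set 3 it was -2.90 ± 0.79, or 7.44-fold lower, and -0.47 ± 0.79 in experiment 2. Within set 1 it was -1.02 ± 0.79 for removal against diet and -2.34 ± 0.79 for the diet group against the monotransgenic one. The mean of the 3 within-set differences was -2.24 ± 0.46, with a limma adjusted p of 0.066 that missed the threshold of 0.05. It passed with the deposited scale in place of quantile normalization (adjusted p = 0.0347) and with array weights (adjusted p = 0.0103), in 7 of the 26 alternatives tried, over which the adjusted p ran from 0.00258 to 0.175. Of all 27022 tested probe sets, 126 passed on the deposited scale and 1027 with array weights.

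Single arrays moved the size in set 1 both ways. Without array 2 after doxycycline removal, the Lpl difference from monotransgenic mice was -4.60 ± 0.67 (limma adjusted p = 0.0186, with 5 of all 27022 probe sets past the threshold) and that from the diet group was -2.26 ± 0.67 (adjusted p = 0.578). Without removal array 1 they were -2.62 ± 0.84 (adjusted p = 0.687) and -0.29 ± 0.84 (adjusted p = 1). The difference from the diet group was also -0.31 ± 0.84 without diet array 2 and -0.51 ± 0.88 without removal array 3, each at an adjusted p of 1. In experiment 2 the value ran from -1.11 to -0.08 as each array was left out, the last without bitransgenic array 2. The differences between sets did not pass in limma: adjusted p was 0.485 for set 1 against experiment 2, 1 for set 1 against set 3 and 0.573 for experiment 2 against set 3.

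The second Lpl probe set, 1431056_a_at, lay under the filter on low values and was read from a fit without it. Its arrays moved much as those of the first (Pearson r = 0.83 over the 21 arrays after the mean of each set was subtracted, a figure that holds group differences too). It read 47.1, 40.3 and 32.7 in monotransgenic set 1 mice, 9.00, 23.3 and 10.9 after doxycycline removal, and 5.39, 18.0 and 10.1 under doxycycline. In set 3 it read 15.1, 8.81 and 17.7 in monotransgenic and 4.64, 4.55 and 0.465 in bitransgenic mice. Both sets thus had the monotransgenic arrays on top. Experiment 2 did not: the probe set read 20.1, 9.34 and 13.5 in bitransgenic and 1.57, 12.1 and 10 in monotransgenic mice, a log2 difference of 0.46 ± 0.23 opposite in sign to that of the brighter probe set. Its other differences were -0.90 ± 0.23 for removal and -1.10 ± 0.23 for diet against monotransgenic, and -0.65 ± 0.23 in set 3.

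Of all the marker lists read, the 3 of highest r with Lpl 1415904_at were those of dentate granule cells (0.75), meninges with fibroblasts (0.78) and CA1 pyramidal cells (0.68). The r of the other lists ran from -0.48 (blood cells) to 0.14 (inhibitory neurons), with -0.28 for CA3, CA2 and mossy cells, -0.19 for astrocytes and 0.07 for microglia. These r were taken over the 21 arrays after the mean of each set was subtracted, so they hold group differences too. Within groups the order of arrays often differed. The array of highest Lpl had the lowest granule-cell mean log2 deviation in monotransgenic (-0.18) and bitransgenic mice (-0.14) of experiment 2. The same was seen in bitransgenic mice of set 3 (-0.21). Of the granule-cell markers, 10 of 10 passed the filter, and 8 of 10 stood lower after doxycycline removal than in monotransgenic mice of set 1, with a median log2 difference of -0.39. Likewise 8 of 10 stood lower in set 3, with a median of -0.36, and 5 of 10 in experiment 2, with a median of -0.02. None of the 10 passed the test in these comparisons. Their summed intensity was 23070 to 26882 after doxycycline removal, 24446 to 25655 under doxycycline and 27643 to 32385 in monotransgenic set 1 mice. It was 26203 to 27810 in bitransgenic and 23627 to 32394 in monotransgenic mice of experiment 2, and 20723 to 23038 and 21982 to 28665 in set 3.

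Of 6 meningeal and fibroblast markers, 4 passed the filter and Col1a1 and Col3a1 lay under it. Their summed intensity was 711 to 879 in monotransgenic set 1 mice, 76.7 to 119 after doxycycline removal and 93.1 to 129 under doxycycline. It was 172 to 610 in monotransgenic and 101 to 159 in bitransgenic mice of experiment 2, and 99.0 to 957 and 88.6 to 209 in set 3. Of the 4 tested markers, 3 stood lower after doxycycline removal than in monotransgenic mice of set 1 (median log2 difference -0.83). In experiment 2, 2 stood higher and 2 lower in bitransgenic mice (median 0.06), and all 4 stood lower in set 3 (median -0.26). Ogn, a small leucine-rich proteoglycan, was the one marker of this list that passed, and it fell by 4.16 ± 0.72 after doxycycline removal against monotransgenic mice (limma adjusted p = 0.0338). Monotransgenic array 2 of set 3, the lowest of its group for Lpl at 191, was also the lowest for these lists, at a mean log2 deviation of -0.34 for the meningeal and -0.09 for the granule-cell list, against 0.49 to 0.55 and 0.28 to 0.32 on the other two arrays. Array 2 after doxycycline removal, the highest of its group for Lpl, was also the highest of its group for both, at -0.17 and -0.02. In monotransgenic mice of experiment 2 and bitransgenic mice of set 3, the array of highest Lpl was instead the lowest for the meningeal list (-0.11 and -0.31).

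Of 5 CA1 pyramidal cell markers, 4 were on the array and all 4 passed the filter (Wfs1, Fibcd1, Pou3f1 and Man1a). They had a mean log2 deviation of -0.14, 0.06 and -0.18 after doxycycline removal and of 0.18, 0.23 and 0.28 in monotransgenic set 1 mice. In set 3 it was -0.16, -0.09 and -0.03 in bitransgenic and 0.29, -0.14 and 0.41 in monotransgenic mice, so array 2 again stood highest after removal and lowest among the monotransgenic arrays of set 3. It was -0.30, -0.31 and -0.26 in bitransgenic and -0.16, -0.15 and 0.13 in monotransgenic mice of experiment 2. Their summed intensity was 329 to 415 after doxycycline removal, 391 to 511 under doxycycline and 485 to 501 in monotransgenic set 1 mice, and 343 to 437 in bitransgenic against 363 to 452 in monotransgenic mice of set 3. In experiment 2 it was 324 to 400 in bitransgenic and 305 to 357 in monotransgenic mice, so there the sum was not lower, unlike the mean log2 deviation. None of the 4 passed the test in these comparisons. The part of these cell groups in the Lpl signal was not tested.

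Fat cells are a rich source of lipoprotein lipase outside the brain. All 4 adipocyte markers on the array (Adipoq, Fabp4, Cidec and Pparg) lay under the filter, with a summed intensity of 11.3 to 42.0 over the 21 arrays. The astrocyte list had no such order: its summed intensity was 5919 to 7028 after doxycycline removal and 5854 to 6447 in monotransgenic set 1 mice. That of the microglial list was 1153 to 1365 and 1416 to 1968, and 1346 to 1548 and 1298 to 1367 in bitransgenic and monotransgenic mice of set 3.

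**Figure D2:**
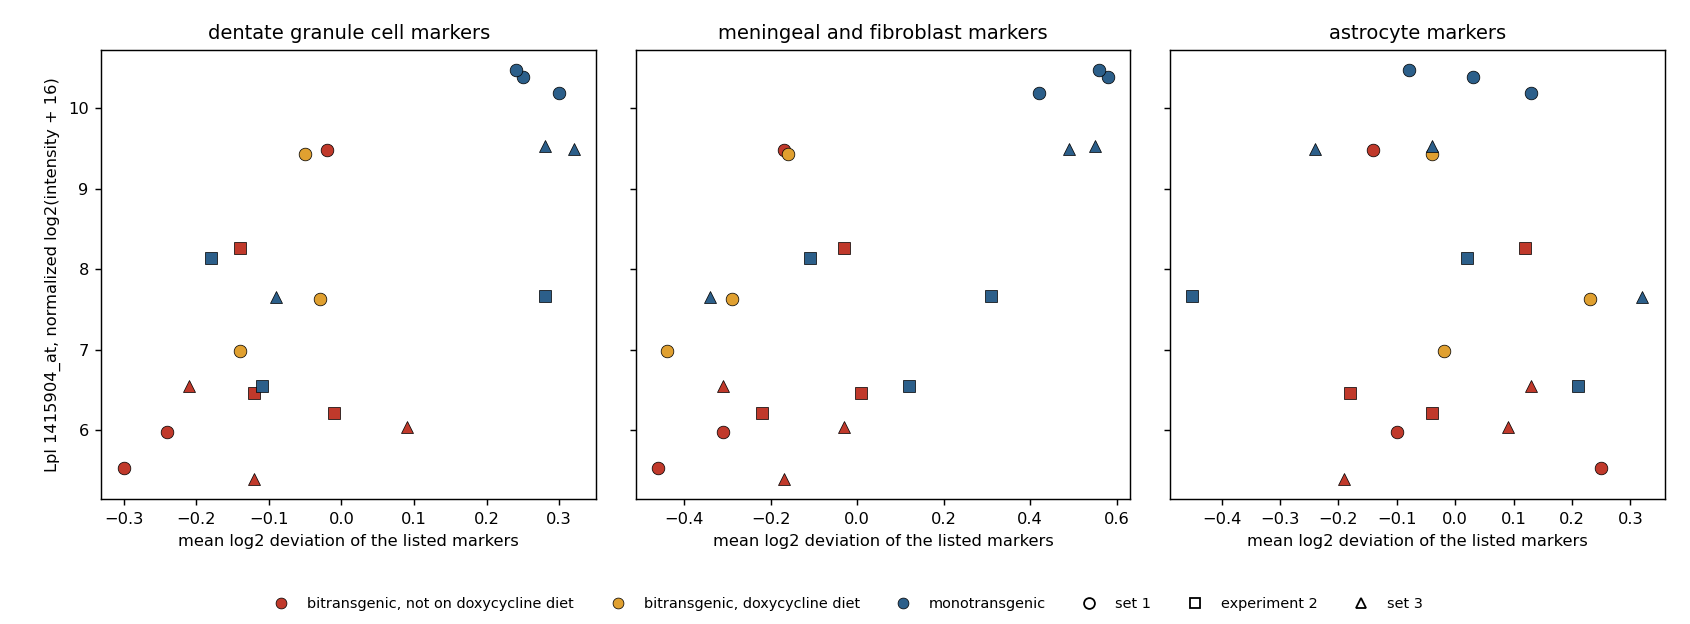
Normalized log2 level of Lpl 1415904_at (vertical axis) against the mean log2 deviation of granule-cell, meningeal and fibroblast, and astrocyte markers from their own mean over the 21 arrays (horizontal axes), 1 point per array. The arrays of high Lpl in the monotransgenic mice of sets 1 and 3 lie to the right for the first 2 lists, while monotransgenic array 2 of set 3 lies at -0.09 and -0.34.

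The genes whose pattern over the 21 arrays was most like that of Lpl 1415904_at, by Pearson r after the mean of each set was subtracted and out of 12498 other genes, were Lrrtm3 (r = 0.82), Tmem88 (0.79), Cntnap5a (0.78), Ntng1 (0.78) and Igfbp5 (0.78). Lrrtm3, Cntnap5a and Ntng1 code for synaptic and axonal adhesion proteins and Igfbp5 for a secreted binder of insulin-like growth factors. Igfbp5 had a mean intensity of 241 after doxycycline removal, 423 under doxycycline and 1220 in monotransgenic set 1 mice, and of 395 in bitransgenic and 884 in monotransgenic mice of set 3. Over the 3 sets Igfbp5 fell by 1.48 log2 units (limma adjusted p = 0.0252, with 19 of all 27022 probe sets past the threshold). Its adjusted p ran from 0.00287 to 0.0893 over the alternatives, passing in 17 of 26. The r that picked these genes keeps group differences, so this p-value describes Igfbp5 and is no separate support for a fall. The other 4 had mean differences over the sets of -0.54, -0.35, -0.75 and -0.81, and none of them passed.

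Apoe was measured by 1 probe set of low signal, 1432466_a_at, at 17.6 to 108 over the 21 arrays, which limits its values. Its mean log2 of 6.15 lay above the array medians of 5.19 to 5.49. In set 1 it read 22.2, 45.9 and 27.6 after doxycycline removal, 53.1, 57.6 and 47.1 under doxycycline, and 42.2, 41.8 and 80.2 in monotransgenic mice. The removal group lay below the diet group without overlap and overlapped the monotransgenic mice. Experiment 2 gave 95.7, 17.6 and 52.2 in bitransgenic and 29.6, 108 and 53.8 in monotransgenic mice, and the lowest reading in each group came from the array of highest actin ratio. In set 3 it read 101, 95.5 and 62.1 in bitransgenic and 78.1, 91.7 and 77.8 in monotransgenic mice, which overlapped.

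The log2 differences of Apoe were -0.50 ± 0.35 for removal against diet, -0.52 ± 0.35 for removal against monotransgenic mice, -0.02 ± 0.35 within experiment 2 and 0.06 ± 0.35 within set 3. The value in experiment 2 ran from -0.40 to 0.43 as single arrays were left out, and without bitransgenic array 2 it was 0.43. The ordered group means were 86.3 ± 21.1 in bitransgenic and 82.5 ± 7.98 in monotransgenic mice of set 3, 63.8 ± 40.1 and 55.1 ± 39.1 in monotransgenic and bitransgenic mice of experiment 2, 54.7 ± 22.1 in monotransgenic mice of set 1, 52.6 ± 5.27 under doxycycline and 31.9 ± 12.5 after doxycycline removal. All neighbours in that order overlapped except the last pair. The genes most like Apoe over the arrays were Nrsn2 (r = 0.87), Chil1 (0.83) and Dedd2 (0.82). Each of these, as Apoe did, read lowest on bitransgenic array 2 of experiment 2, that of the highest actin ratio (36.8, 1.58 and 12.7).

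Vldlr, the very low-density lipoprotein receptor and a receptor for Reelin, gave steady signals by most of its probe sets, though 1442169_at read 78.6 to 400. The Vldlr probe set of highest signal, 1434465_x_at, read 1281, 1498 and 1309 after doxycycline removal, 1593, 1459 and 1039 under doxycycline and 1500, 1291 and 1513 in monotransgenic set 1 mice. In experiment 2 it read 1893, 1637 and 1742 in bitransgenic and 1816, 1566 and 1745 in monotransgenic mice, and in set 3 1527, 1414 and 1469 against 1319, 1462 and 1244. All 3 within-set pairs overlapped, while both groups of experiment 2 lay above all other groups but for 1 diet array at 1593. The group means ran in the order 1757 ± 129 and 1709 ± 129 in bitransgenic and monotransgenic mice of experiment 2, 1470 ± 56.3 in bitransgenic mice of set 3, 1434 ± 124 in monotransgenic mice of set 1, 1364 ± 289 under doxycycline, 1363 ± 118 after doxycycline removal and 1341 ± 111 in monotransgenic mice of set 3. Of the neighbours in it, the second and the third did not overlap and the others did.

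The within-set differences of Vldlr 1434465_x_at were -0.10 ± 0.14 in set 1, -0.04 ± 0.14 in experiment 2 and 0.11 ± 0.14 in set 3, with a mean of -0.01 ± 0.08. In experiment 2, over the 3 sets and for removal against diet their sign turned on the deposited scale, where the first was 0.04 and the second 0.03. The other 5 probe sets of Vldlr gave mean differences over the sets of 0.27 ± 0.11 (1438258_at), 0.12 ± 0.07 (1435893_at), 0.04 ± 0.13 (1417900_a_at), 0.17 ± 0.21 (1442169_at) and 0.24 ± 0.10 (1451156_s_at, a dim probe set that read 12.4 to 33.8). The probe set 1438258_at read 859, 708 and 779 after doxycycline removal, 764, 665 and 690 under doxycycline and 614, 778 and 467 in monotransgenic mice. Its removal and monotransgenic groups overlapped through 1 monotransgenic array. The probe sets did not move as 1: r between pairs of them, after the set means were subtracted, ran from -0.14 to 0.66. The genes most like 1434465_x_at were Cd46 (r = 0.77), Mdh1 (0.73) and Ccdc74a (0.70).

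Lrp8, the second Reelin receptor, was split between its probe sets. The one of highest signal, 1442347_at, read 266, 209 and 222 after doxycycline removal, 176, 170 and 201 under doxycycline and 159, 157 and 177 in monotransgenic set 1 mice. The removal group lay above both other groups without overlap, by 0.36 ± 0.25 and 0.48 ± 0.25 log2 units. Set 3 had the opposite order, at 156, 173 and 186 in bitransgenic and 229, 178 and 217 in monotransgenic mice (-0.25 ± 0.25), with overlap. The difference between set 1 and set 3 was 0.73 ± 0.35, with an unadjusted limma p of 0.0478 that did not pass after adjustment. In experiment 2 it read 140, 336 and 120 in bitransgenic and 161, 203 and 161 in monotransgenic mice. The reading of 336 came from the array of highest actin ratio, and without that array the difference turned from 0.10 ± 0.25 to -0.35 ± 0.16 (limma adjusted p = 0.328).

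The second Lrp8 probe set, 1440882_at, gave 0.16 ± 0.17 in set 1, -0.06 ± 0.17 in experiment 2 and 0.21 ± 0.17 in set 3, with 72.1 to 134 over all arrays. The third, 1421459_a_at, lay under the filter at 1.96 to 19.7. By 1442347_at the ordered group means were 233 ± 29.9 after doxycycline removal, 208 ± 26.3 in monotransgenic mice of set 3, 198 ± 120 in bitransgenic mice of experiment 2, 182 ± 16.3 under doxycycline, 175 ± 23.9 in monotransgenic mice of experiment 2, 172 ± 15.2 in bitransgenic mice of set 3 and 164 ± 11 in monotransgenic mice of set 1, and all neighbours overlapped. Most like it were Icmt (r = 0.88), Dhcr7 (0.83) and Fam160b2 (0.83). Each of these, as 1442347_at did, read highest on bitransgenic array 2 of experiment 2, that of the highest actin ratio (263, 280 and 1506). The part of that array in the likeness was not tested. Dhcr7 codes for the enzyme of the last step of cholesterol synthesis.

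Lrp1, a large endocytic receptor for apolipoprotein E and many proteases, read 108, 99.8 and 121 after doxycycline removal, 130, 108 and 125 under doxycycline and 110, 104 and 111 in monotransgenic set 1 mice by probe set 1448655_at. In set 3 it read 139, 136 and 132 in bitransgenic and 129, 109 and 124 in monotransgenic mice. The set 1 groups overlapped, and in set 3 the bitransgenic arrays lay just above the monotransgenic ones. In experiment 2 it read 146, 71.4 and 93.2 in bitransgenic and 109, 195 and 138 in monotransgenic mice, which overlapped. The 71.4 again came from bitransgenic array 2. The differences were 0.06 ± 0.18 in set 1, -0.35 ± 0.18 in experiment 2 and 0.17 ± 0.18 in set 3.

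The second Lrp1 probe set, 1442849_at, read 25.6, 98.3 and 27.6 in bitransgenic and 86.2, 98.1 and 71.6 in monotransgenic mice of experiment 2. Arrays 1 and 3 of the bitransgenic group were the lowest 2 of all 21, and array 2, that of the highest actin ratio, was the highest. The difference was -0.59 ± 0.28 over all arrays (limma adjusted p = 0.312). It was -1.12 ± 0.18 without bitransgenic array 2 (adjusted p = 0.00394) and -1.06 ± 0.20 without both arrays of highest actin ratio (adjusted p = 0.00688). Many more probe sets passed there too: 366 and 1200 of all 27022, against 84 with all arrays in. In sets 1 and 3 the same probe set gave 0.07 ± 0.28 and -0.12 ± 0.28. The r between both Lrp1 probe sets was -0.11.

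By 1448655_at the group means ran from 147 ± 43.8 in monotransgenic mice of experiment 2, through 135 ± 3.41 in bitransgenic mice of set 3, 121 ± 11.5 under doxycycline, 121 ± 10.7 in monotransgenic mice of set 3, 110 ± 10.6 after doxycycline removal and 108 ± 3.66 in monotransgenic mice of set 1, to 103 ± 38.1 in bitransgenic mice of experiment 2. Among these neighbours, only bitransgenic mice of set 3 and the diet group did not overlap. Most like Lrp1 were Atp6v0a1 (r = 0.88), Uqcr11 (0.87) and Taf10 (0.87), the first a subunit of the proton pump that acidifies endosomes and synaptic vesicles. Each of these, as Lrp1 did, read lowest on bitransgenic array 2 of experiment 2, that of the highest actin ratio (63.3, 1113 and 226).

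**Figure D3:**
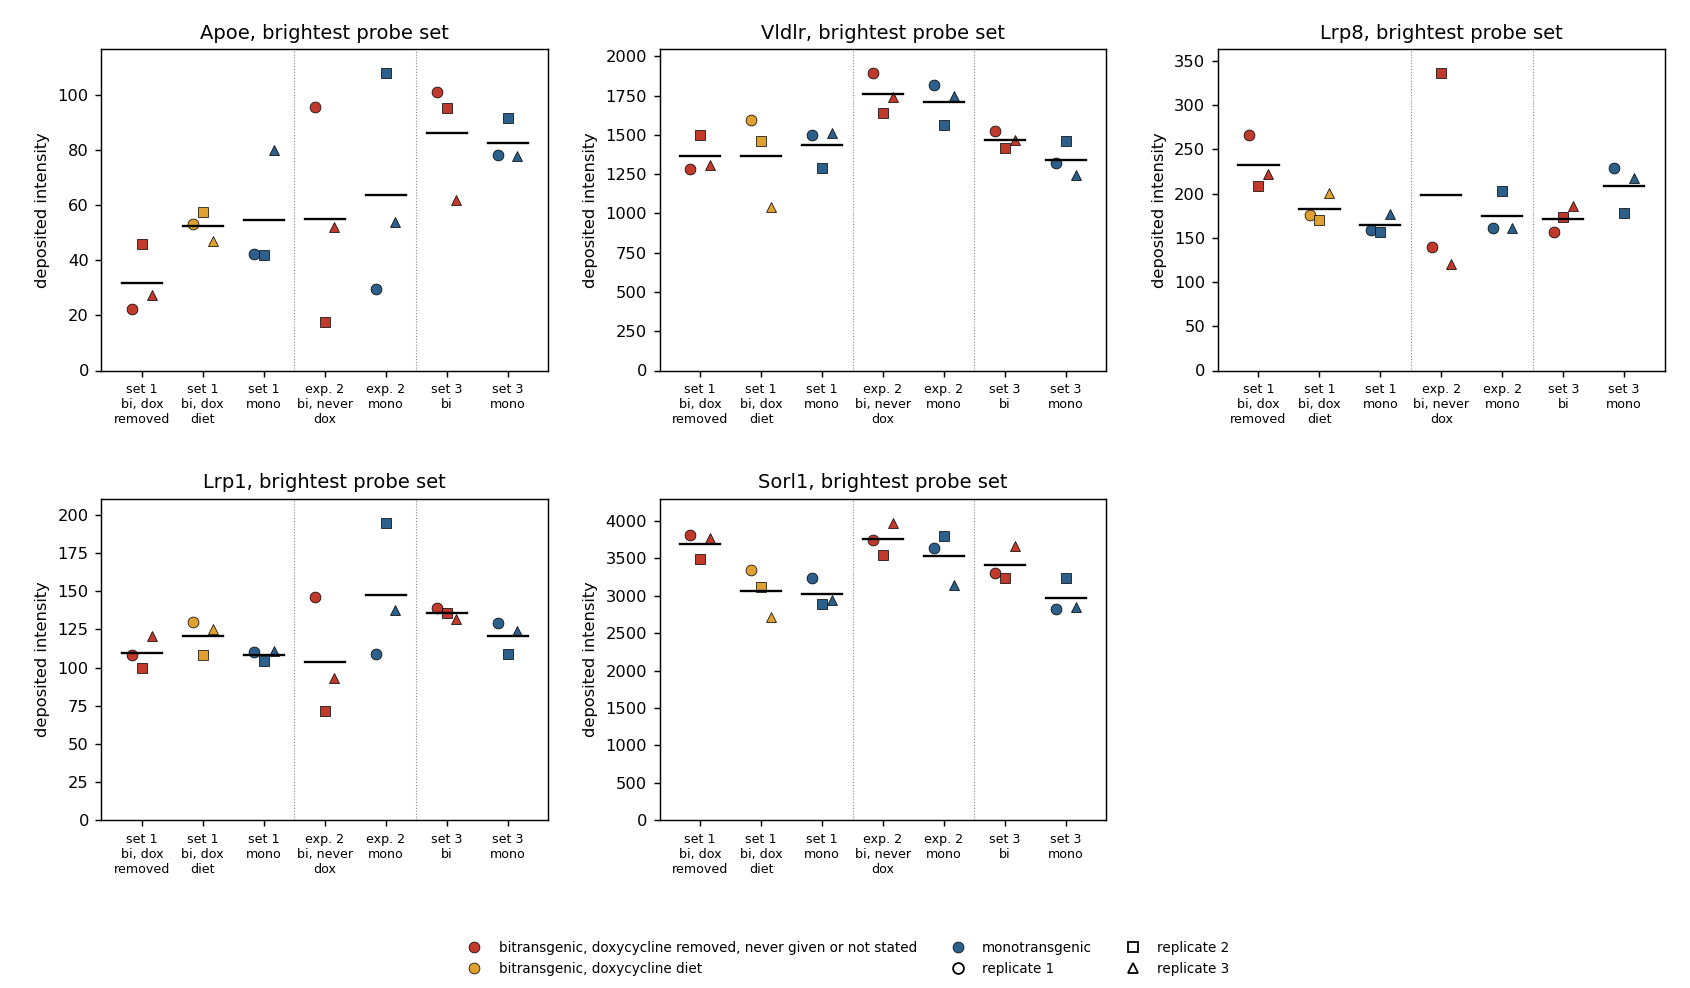
Deposited intensity of the brightest probe set of Apoe, Vldlr, Lrp8, Lrp1 and Sorl1 on each array by group, on axes that start at 0; bars are means of 3 arrays. Bitransgenic array 2 of experiment 2 gives the lowest Apoe (17.6), the lowest Lrp1 (71.4) and the highest Lrp8 (336) reading of all 21 arrays.

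Sorl1, by probe sets 1453003_at and 1460390_at, had the opposite direction to Lpl 1415904_at in bitransgenic mice off the doxycycline diet against monotransgenic mice. Its probe set of highest signal, 1453003_at, read 3808, 3491 and 3772 after doxycycline removal, 3340, 3120 and 2718 under doxycycline and 3240, 2892 and 2938 in monotransgenic set 1 mice. The removal group lay above both other groups without overlap. In set 3 it read 3305, 3239 and 3671 in bitransgenic and 2826, 3235 and 2850 in monotransgenic mice, again without overlap though by a margin of 3239 against 3235. In experiment 2 it read 3741, 3541 and 3977 in bitransgenic and 3645, 3796 and 3138 in monotransgenic mice, and the groups overlapped.

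The differences of Sorl1 1453003_at were small beside those of Lpl: 0.24 ± 0.10 in set 1, 0.03 ± 0.10 in experiment 2, 0.20 ± 0.10 in set 3 and 0.16 ± 0.06 as their mean (limma adjusted p = 0.266), and 0.03 ± 0.10 for diet against monotransgenic. With array weights the mean was 0.19 ± 0.05 and passed (adjusted p = 0.0444, beside 1027 of all 27022 probe sets), the one of 26 alternatives in which it did. Group means were 3753 ± 219 in bitransgenic mice of experiment 2, 3691 ± 174 after doxycycline removal, 3526 ± 345 in monotransgenic mice of experiment 2, 3405 ± 233 in bitransgenic mice of set 3, 3059 ± 315 under doxycycline, 3023 ± 189 in monotransgenic mice of set 1 and 2970 ± 230 in those of set 3. All neighbours in this order overlapped. The genes most like it were Syndig1 (r = 0.86), Nkain1 (0.85) and Hrk (0.85). Syndig1 codes for a protein of excitatory synapses that associates with AMPA receptors.

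A second Sorl1 probe set, 1460390_at, had the same direction in all 3 sets. It read 232, 194 and 174 after doxycycline removal, 144, 147 and 137 under doxycycline and 161, 150 and 192 in monotransgenic set 1 mice. In experiment 2 it read 219, 288 and 192 in bitransgenic and 158, 191 and 118 in monotransgenic mice, and in set 3 197, 195 and 204 against 168, 196 and 165. The groups of experiment 2 did not overlap, by a margin of 192 against 191, while those of sets 1 and 3 each overlapped with the monotransgenic mice through 1 array. Removal lay above diet without overlap (0.47 ± 0.18, limma adjusted p = 0.951). The diet group lay below the monotransgenic one without overlap (-0.21 ± 0.18), the direction that Lpl had in that comparison. The differences from monotransgenic mice in set 1 (removal), experiment 2 and set 3 were 0.26 ± 0.18, 0.61 ± 0.18 and 0.17 ± 0.18. Their mean of 0.35 ± 0.11 had a limma adjusted p of 0.162, or 0.0438 with array weights.

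The third Sorl1 probe set, 1426258_at, had 2 arrays far from the rest. Diet array 2 read 1999 and monotransgenic array 2 of set 1 read 1792, while the other 19 arrays lay between 385 and 874. Neither of the other Sorl1 probe sets was high on those arrays, at 3120 and 2892 for 1453003_at and 147 and 150 for 1460390_at. With both arrays in, removal stood -0.25 ± 0.45 from monotransgenic and -0.46 ± 0.45 from diet. Without them, a choice made after seeing the data, these differences turned to 0.45 ± 0.18 and 0.23 ± 0.18, and neither passed in limma (adjusted p = 0.86 and 1).

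**Figure D4:**
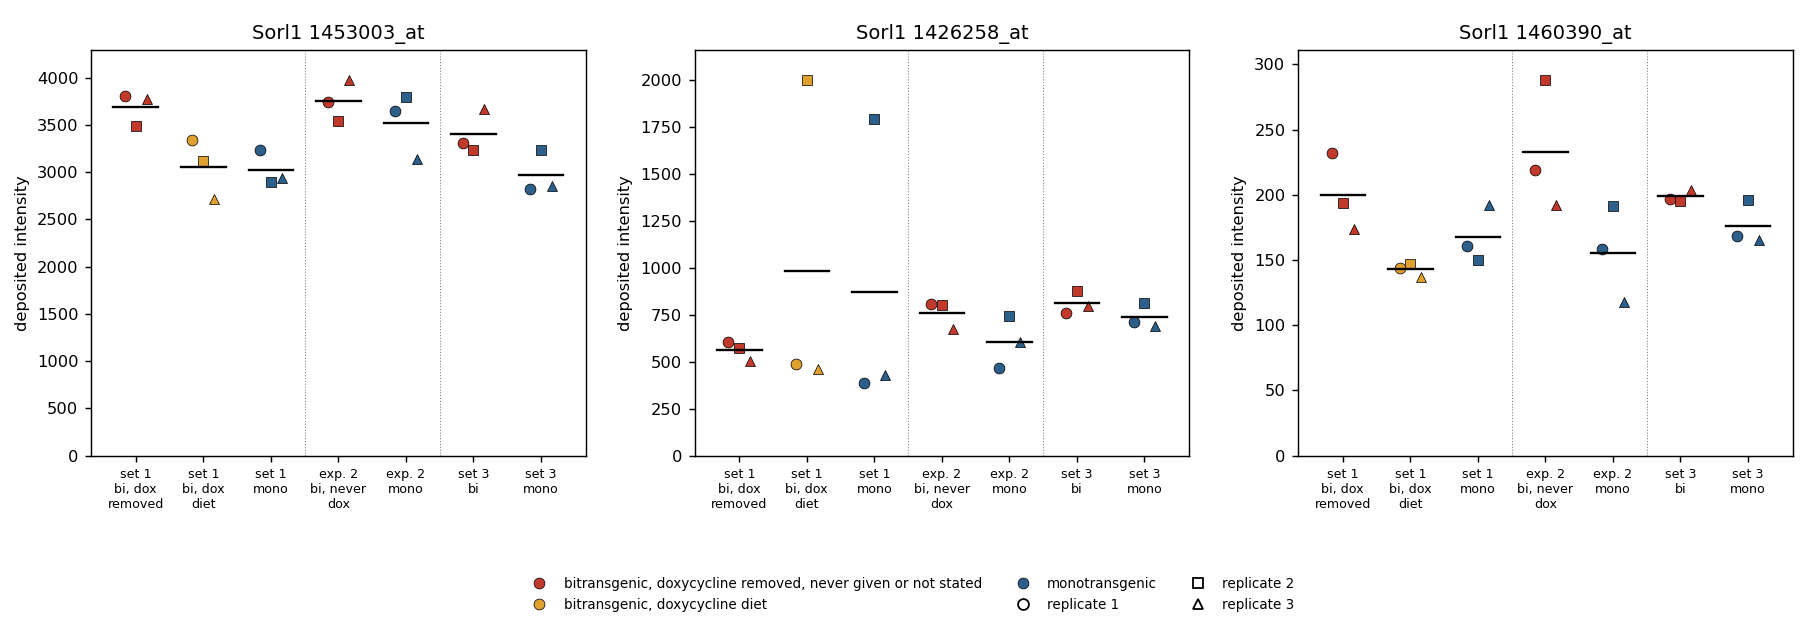
Deposited intensity of the 3 Sorl1 probe sets on each array by group, on axes that start at 0; bars are means of 3 arrays. In 1453003_at the doxycycline-removal arrays lie at the top of set 1 (3491 to 3808), and in 1426258_at diet array 2 and monotransgenic array 2 of set 1 lie at 1999 and 1792, above all others.

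Of the 17 probe sets, 15 passed the filter, and none passed the limma test in any of the 6 comparisons. The shares of all 27022 tested probe sets that passed were 0.0185% for removal against diet, 0.0333% for removal against monotransgenic, 0.0037% for the diet group against the monotransgenic one, 0.311% within experiment 2, 0% within set 3 and 0.0703% for the mean over the sets. The counts at an unadjusted p under 0.05 were 1, 2, 1, 2, 1 and 5 of 15, where 4.72%, 6.86%, 3.75%, 15.9%, 4.63% and 11.8% of all tested probe sets lay. The 5 for the mean over the sets were Lpl 1415904_at, Sorl1 1453003_at and 1460390_at, and Vldlr 1438258_at and 1451156_s_at.

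The probe sets of these genes stood higher in 9, 10, 9, 9, 11 and 10 of 15 cases in the same order of comparisons, with medians of 0.11, 0.10, 0.03, 0.03, 0.13 and 0.10 where the medians of all tested probe sets were 0 to 0.01. On the deposited scale the counts were 10, 10, 9, 9, 11 and 11. On the quantile-normalized values, groups did not overlap for 5 of 15 for removal against diet, 4 for removal against monotransgenic, 2 for the diet group against the monotransgenic one, 1 within experiment 2 and 3 within set 3, beside 14.7%, 19.2%, 13.6%, 10.2% and 13.9% of all tested probe sets. Deposited intensities differ for Vldlr: 1451156_s_at overlapped for removal against diet and 1435893_at for removal against monotransgenic. In set 3, 1435893_at did not overlap on that scale. One probe set, Lpl 1415904_at, was lower in all 3 transgene-on comparisons, as were 13.4% of all tested. Another 6 (4 of Vldlr and 2 of Sorl1) were higher in all 3, as were 16.1%, though 1 of them, Vldlr 1442169_at, stood at 0.00 ± 0.36 in experiment 2 and turned sign there on the deposited scale. Since the genes were chosen on these differences, nothing is read from the counts.

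**Figure D5:**
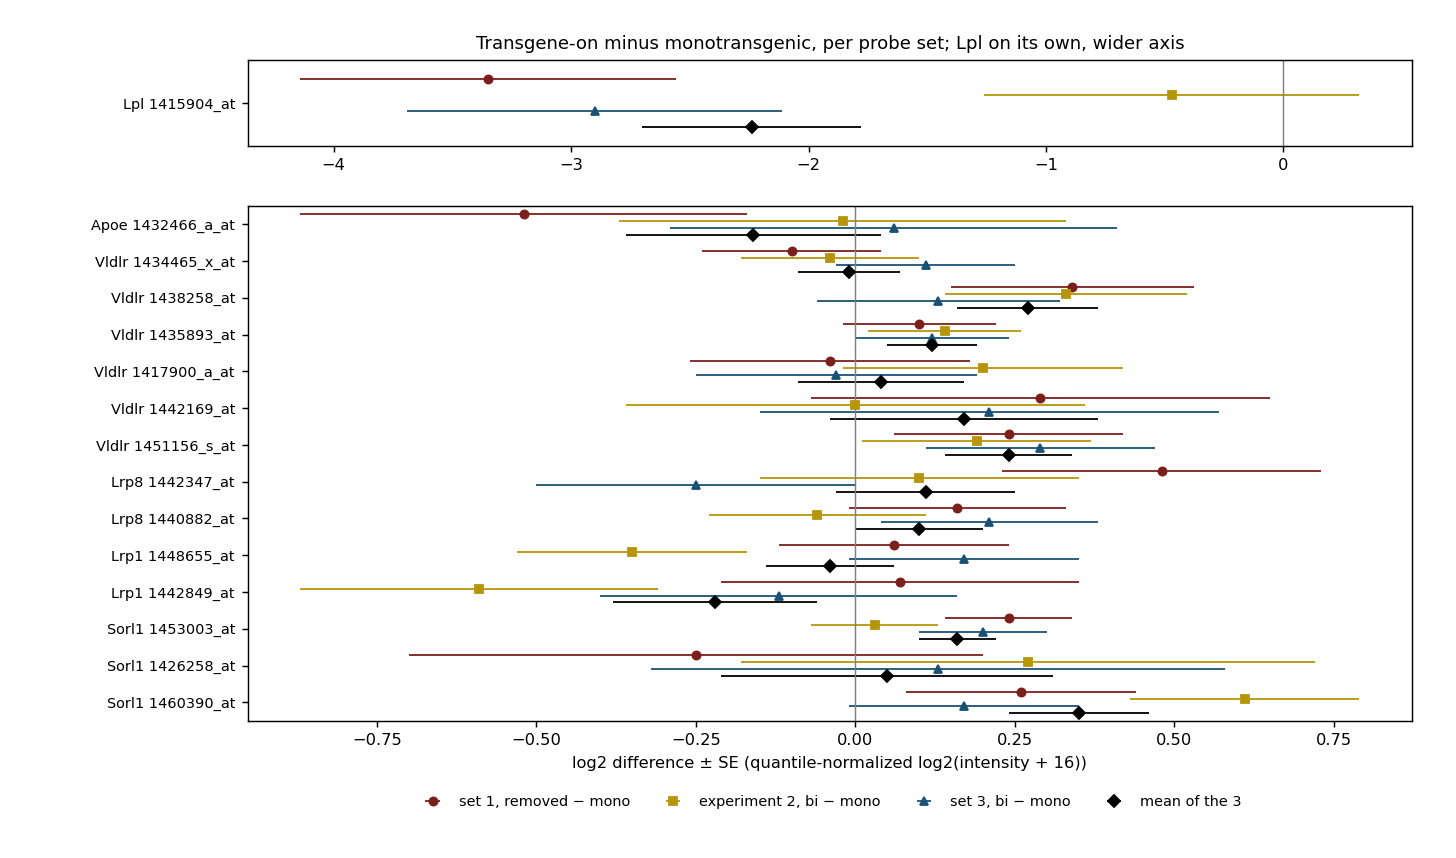
Log2 differences with SE (horizontal axis) of the 15 probe sets that passed the filter, for the 3 comparisons of bitransgenic mice off the doxycycline diet with monotransgenic mice and for their mean; Lpl has an axis of its own. The Lpl points of sets 1 and 3 lie at -3.35 and -2.90, and the mean differences of all other probe sets lie between -0.22 and 0.35.

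The genes also differed in how much they varied among arrays of 1 group. The pooled SD within groups was 1.18 log2 units for Lpl 1415904_at, higher than in 99.9% of tested probe sets, where the median was 0.26. It was 0.66 for Sorl1 1426258_at, 0.51 for Vldlr 1442169_at and 0.49 for Apoe, all above 95% of probe sets, and 0.11 for Sorl1 1453003_at and 0.10 for Vldlr 1435893_at, below 98%. Over all 21 arrays the SD of Lpl was 1.68, and 10 tested probe sets had a higher one. Between the genes, taken by their brightest probe sets and after the set means were subtracted, r over the 21 arrays ran from -0.62 for Apoe with Lrp8 to 0.55 for Apoe with Lrp1. Bitransgenic array 2 of experiment 2, that of the highest actin ratio, had the lowest Apoe (17.6), the lowest Lrp1 (71.4) and the highest Lrp8 (336) reading of all. How far both r rest on that array was not tested. Lpl had r = -0.58 with Sorl1 and 0.47 with Apoe.

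The partners of these genes were read from 5 lists, 1 brightest probe set per gene. Of 17 tested genes of lipase partners and fatty acid handling, 1 rose and none fell in experiment 2, and none passed elsewhere, with 1, 1, 1, 4, 1 and 3 at an unadjusted p under 0.05 over the 6 comparisons. The gene was Sdc4, syndecan-4, a heparan sulfate proteoglycan of the cell surface. It read 73.3, 92.5 and 68.1 in bitransgenic and 41.7, 50.3 and 35.3 in monotransgenic mice of experiment 2. The groups did not overlap, and the difference was 0.92 ± 0.19 (limma adjusted p = 0.0334). The call did not hold in 9 of 15 alternatives, among them the deposited scale (adjusted p = 0.0562) and leaving out bitransgenic array 2 or 3 or monotransgenic array 2 or 3, over which its adjusted p ran to 0.104. With experiment 2 fitted alone its adjusted p was 0.892. Sdc4 read 61.1, 42.1 and 57.0 after doxycycline removal against 37.4, 49.1 and 53.3 in monotransgenic mice of set 1, and 64.4, 46.0 and 55.9 against 64.6, 45.3 and 52.6 in set 3, with overlap in both. Glce, which modifies heparan sulfate, and Acsl6, which activates fatty acids, had mean differences over the sets of 0.32 ± 0.10 and 0.23 ± 0.09, and the fatty acid binding protein gene Fabp5 had -0.21 ± 0.08 in experiment 2.

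Of 18 tested apolipoproteins and genes of lipid loading, none passed in any comparison, and 0, 1, 1, 2, 1 and 1 lay at an unadjusted p under 0.05. They stood lower in 14 of 18 cases for removal against both diet and monotransgenic mice (medians -0.10 and -0.09, all genes -0.01), in 12 in experiment 2 (median -0.18, all genes 0.02) and in 8 in set 3 (median 0.05, all genes 0.03). On the deposited scale these medians were -0.14, -0.11, -0.21 and 0.04, and those of all genes were -0.03, -0.03, -0.07 and 0.02. Scarb1, the receptor for high-density lipoprotein, had the lowest p, at -0.60 ± 0.15 in experiment 2 (limma adjusted p = 0.0941). Apod, a lipid carrier of glia and meninges, had -0.84 ± 0.28 for removal against monotransgenic mice of set 1, and the nuclear receptor gene Rxra had 0.44 ± 0.21 in experiment 2. Apool, a mitochondrial relative of the apolipoprotein O gene, had a mean over the sets of -0.27 ± 0.08.

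Of 11 tested other genes of the LDL receptor family and its helpers, none passed, and 1, 1, 0, 1, 2 and 1 lay at an unadjusted p under 0.05. Lrp12 had a mean difference over the sets of 0.50 ± 0.20, Lrp6, a co-receptor for Wnt proteins, -0.47 ± 0.20 in set 3, Lrp10 -0.51 ± 0.22 for removal against diet and Lrp11 0.30 ± 0.14 in experiment 2. Of 13 tested genes of the Sorl1 family and of the retromer, the coat that returns cargo from endosomes, none passed either, and 0, 0, 1, 0, 0 and 1 lay at an unadjusted p under 0.05. Sorcs3, a relative of Sorl1, had -0.76 ± 0.31 for diet against monotransgenic mice. Snx3, Gga2 and Vps26b, which sort endosomal cargo, had 0.14 ± 0.06 and 0.18 ± 0.09 over the sets and 0.28 ± 0.16 in experiment 2. For Vps26b the bitransgenic readings were 471, 700 and 462, the 700 from the array of highest actin ratio, against 348, 473 and 462.

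Of 20 tested receptor adaptors and Reelin pathway genes, none passed in limma, and 1, 0, 1, 1, 0 and 0 lay at an unadjusted p under 0.05. Rapgef1, an exchange factor that acts after Reelin receptors, had -0.56 ± 0.21 in experiment 2, and Dab2, an endocytic adaptor, had -0.56 ± 0.22 for diet against monotransgenic mice. Sparcl1, a secreted astrocyte protein, and Plat, the tissue plasminogen activator that Lrp1 clears, had -0.71 ± 0.35 and -0.64 ± 0.33 in experiment 2.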

How the data were processed

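RNA of the dentate gyrus was measured on 21 arrays in 7 groups of 3, and groups were taken from the labels. The deposited values are linear intensities per probe set; they were scaled alike on every array, with a mean of 149.9 after the lowest and highest 2% were left out. Neither the software behind them nor detection calls were at hand. The platform annotation gave 1 symbol for 34945 of 45101 probe sets, several for 932 and none for 9160; the 64 control probe sets were dropped.

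Intensities were taken as log2(value + 16) and quantile-normalized, since array medians ran from 5.19 to 5.49. The upper 60% by mean (27022 probe sets, mean log2 of at least 4.9) were tested with limma 3.58.1 in R 4.3.3 (data.table package, version 1.17.8), with 1 coefficient per group, 14 residual degrees of freedom, moderated variances with a trend, two-sided tests, Benjamini-Hochberg over all tested probe sets and a threshold of 0.05. The 6 comparisons and 3 differences between sets came from this fit, which was checked on simulated data. Errors are SEs of differences or SDs of intensities; 3 arrays a group limit the precision. The members, lists, tests and alternatives were chosen with earlier results of these data known. Named were all members, per list the 4 genes of lowest unadjusted p over the comparisons, and the 5 (Lpl) or 3 genes of highest r. Figures used matplotlib 3.10.9 in Python 3.11.15. Promoters and proteins of the members were not used here, and no signal of one probe set was set against that of another.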

Additional observations from a re-analysis of the deposited data

How the results depend on the processing

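The counts of Lpl, Apoe and receptor probe sets that passed, all 0 as reported, were recomputed with a pseudocount of 1 or 64, without the filter or with the upper 40% kept, on the deposited scale, with 1 probe set per gene, each set alone, array weights, without the 2 arrays of highest actin ratio, with the title prefix as a factor in set 3, and without each array. For removal against monotransgenic the count was 1 with array weights and 0 to 1 as single arrays were left out; in experiment 2 it was 1 without the 2 arrays of highest actin ratio and 0 to 1 as single arrays were left out. For the mean over the sets it was 1 on the deposited scale, 3 with array weights, 1 without the 2 arrays of highest actin ratio and 0 to 1 as single arrays were left out; Lpl passed without array 2 after doxycycline removal, monotransgenic array 1 or bitransgenic array 1 of experiment 2, or monotransgenic array 2 of set 3. More of all 27022 probe sets passed in most of these settings: 198 for removal against monotransgenic with weights, 1200 and 366 in experiment 2 without the 2 arrays and without bitransgenic array 2, and over the sets 126, 1027 and 709, then 20, 346, 48 and 435 without the arrays named, against 19 as reported. The other 3 comparisons gave 0 throughout. Of 615 recomputed differences of the brightest probe sets and of Sorl1 1426258_at, 606 moved by less than 1 SD and 9 by more: Lpl in set 1 without removal array 2, Vldlr for removal against diet (-0.20) and diet against monotransgenic (0.10) without diet array 3, Lrp8 in experiment 2 with array weights (-0.26), without the 2 arrays of highest actin ratio (-0.36) and without bitransgenic array 2, and Sorl1 1426258_at for both removal comparisons. The number of all probe sets called ran from 0 to 114 for removal against diet, 0 to 417 for removal and 0 to 33 for diet against monotransgenic, 0 to 1200 in experiment 2, 0 to 80 in set 3 and 4 to 1027 over the sets. No paired analysis was possible because replicate numbers are names in deposition order. In set 3, title prefixes shared by 2 arrays of each genotype, fitted as a factor, gave 0 members called and Lpl -2.60 (limma adjusted p = 0.728). The genotype difference in that fit rests on the arrays of shared prefixes alone. Almost no residual degrees of freedom are left, so its test had little power. Low signal limits Apoe, the dimmer Lpl, the dimmest Lrp8 and the dimmest Vldlr (1451156_s_at, 12.4 to 33.8) probe sets. The causes of these shifts were not tested.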

Other observations

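Diet array 2 and monotransgenic array 2 of set 1, which stood apart in Sorl1 1426258_at, also stood apart together in other probe sets, chosen here after their values were seen. Only tested probe sets with 1 symbol and a chromosome in RefSeq were looked at. In 14 of them, each of a different gene, both arrays lay beyond all other 19 by more than 0.25 log2 units. The widest gap, 1.02, was that of Sorl1, followed by Scn2b, a sodium channel subunit, which read 532 and 467 on these arrays and 66.6 to 300 on the others. Hepacam, an adhesion protein of astrocytes, read 45.8 and 42.2 against 15.3 to 35.3, and Parp3, an enzyme of DNA repair, read 4.57 and 4.6 against 7.89 to 58.4. These 4 genes lie on chromosome 9 in the RefSeq table, which holds 5.66% of the 12469 tested genes placed there. Sorl1 itself picked the 2 arrays, so its place among the 4 was set in advance. Other pairs of arrays were not counted, and nothing is read from the share. The other 10 lie on other chromosomes, such as Ror1 on chromosome 4 (89.5 and 90.0 against 2.16 to 61.4) and Rad51d on chromosome 11 (40.4 and 37.2 against 44.4 to 80.1). The labels name no feature that these 2 arrays share and the others lack.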
